A study of Arabidopsis thaliana with 6 samples.

Results

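The SQUAMOSA PROMOTER BINDING PROTEIN-LIKE (SPL) genes that carry a site for the microRNA miR156 were followed in dissected shoot apical meristems of Arabidopsis thaliana. They are 10 of the 32833 loci in the count tables, taken by locus identifier: SPL2 (AT5G43270), SPL3 (AT2G33810), SPL4 (AT1G53160), SPL5 (AT3G15270), SPL6 (AT1G69170), SPL9 (AT2G42200), SPL10 (AT1G27370), SPL11 (AT1G27360), SPL13 (here SPL13A, AT5G50570) and SPL15 (AT3G57920). The family was selected on values of these same libraries, in which SPL10 had a higher level in those labelled VGD1, and its members are the known miR156 targets. Differences of these genes between the groups are therefore given as descriptions, with no p-value, and whether a member passed the threshold over all genes is stated without anything being read from it. There were 3 poly(A)-selected RNA-seq libraries labelled VGD1 (genotype pCLV3>>erTurquoise, >>VGD1) and 3 controls (genotype pCLV3>>erTurquoise). In the first group the CLV3 promoter, active in stem cells, was to drive VGD1, a pectin methylesterase, which removes methyl groups from cell wall pectin. Both groups carried the reporter erTurquoise, received dexamethasone to activate the transgenes by way of the steroid-gated transcription factor GR-LhG4, and came from inflorescences on 15 cm tall stems grown in 16 hours of light and 8 hours of darkness. Flower primordia were taken off up to stage 3 to 4. The labels give 72 hours after induction in 1 place and 48 hours in another, and 30 µM dexamethasone in 1 place and 30 mM in another. They give neither the age at harvest nor whether replicates came from separate batches of plants, so spreads and p-values cover only the spread between these libraries.

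VGD1 RNA did not mark its own group. VGD1 stood at 6.59, 7.91 and 7.11 CPM (counts per 1000000 counts of the library) in the libraries labelled VGD1, against 11.4, 12.7 and 4.79 CPM in the controls, so the groups overlapped (edgeR adjusted p = 0.372). Every direction below is therefore that of the libraries labelled VGD1 against the controls. CLV3, the peptide gene of the stem cells, had 3, 8 and 11 counts in the libraries labelled VGD1 and 0 in each control. The limit set by 0 counts was 0.449 CPM in control replicate 3, above the CLV3 level of 2 of the 3 libraries labelled VGD1 (0.150, 0.416 and 0.592 CPM). In control replicates 1 and 2 the limit was 0.133 and 0.124 CPM, below all 3 of those levels. Of the 8 meristem genes listed, 7 were fitted, with 4 log2 differences above 0 and 3 below and none past the threshold or at an unadjusted p under 0.05. Among them, STM stood at 60.3 to 90.4 CPM against 66.1 to 70.8 CPM in the controls. Totals ran from 18432365 to 19394881 counts in the libraries labelled VGD1 and from 6638772 to 24437872 in the controls, control replicate 3 being the shallowest.

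SPL proteins are plant transcription factors that share a zinc-binding SBP domain, which binds promoters with a GTAC core. miR156 and the related miR157 pair with most SPL transcripts, cut them or block their translation, and are abundant in young plants. As miR156 declines with age, SPL proteins accumulate, the shoot takes on adult traits and becomes competent to flower, in part through activation of MIR172 genes and of the floral regulators SOC1, FUL, LFY and AP1.

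The miR156 sites are shown because they are what the 10 genes share. MIR156 loci A to F, 6 in all, encode an identical 5′ arm of 20 bases in the TAIR10.1 annotation of RefSeq, and miR157a, b and c encode a form of 21 bases. Capitals mark bases 2 to 8, the seed.
miR156a-5p: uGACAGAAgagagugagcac
miR156j: uGACAGAAgagagagagcac
miR156i: uGACAGAAgagagagagcag
miR157a-5p: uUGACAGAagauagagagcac

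The seed of miR156a-5p was shared by 11 of the mature 5′ forms examined. The remaining 3 were miR157a, b and c, which have an extra base at the 5′ end that moves the seed along by 1 base. A search of all annotated mRNAs of 27558 protein-coding genes for the closest match to the perfect complement of miR156a-5p found no gene with a perfect match. Exactly 8 genes differed from the complement at 1 base: SPL2, SPL6, SPL9, SPL10, SPL11, SPL13A, SPL15 and SPL13B (AT5G50670), the duplicate of SPL13A. SPL3 and SPL4 differed at 2 bases, and SPL5, AT3G28690 and AT3G47170 at 3, which made 13 genes, or 0.0472% of those searched, with 3 or fewer differences. Each of the 6 SPL genes without a miR156 site, SPL1, SPL7, SPL8, SPL12, SPL14 and SPL16, had 6 to 8 differences at its closest match. Below, capitals mark the bases that do not match the complement of miR156a-5p, written 5′ to 3′ as RNA.
SPL10 site: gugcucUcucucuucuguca
SPL3 site: UugcuUacucucuucuguca
SPL4 site: CugcucUcucucuucuguca
SPL5 site: CCgcucUcucucuucuguca

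The 20 bases of the SPL10 site were identical in the other 6 members whose site lies in the coding sequence. SPL10 holds the site at chr1:9505541-9505560 on the minus strand (TAIR10.1), inside the coding part of all 7 annotated transcripts. The neighbouring gene SPL11 holds it at chr1:9503618-9503637 on the plus strand, in all 4 transcripts. SPL9 holds it at chr2:17589066-17589085, SPL2 at chr5:17360758-17360777 and SPL6 at chr1:26006731-26006750. In SPL3, SPL4 and SPL5 the site lies in the 3′ UTR, and in SPL4 it is present in 1 of the 3 annotated transcripts (chr1:19807090-19807109). Opposite the sites of SPL4 and SPL9, on the other strand and over the same 20 bases, the annotation places the mature miR156i and miR156j printed above. Both of those loci had 0 counts in all 6 libraries. Their exons share 197 bases with SPL4 and 68 bases with SPL9, so these 0 counts are not read as absence.

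**Figure D1:**
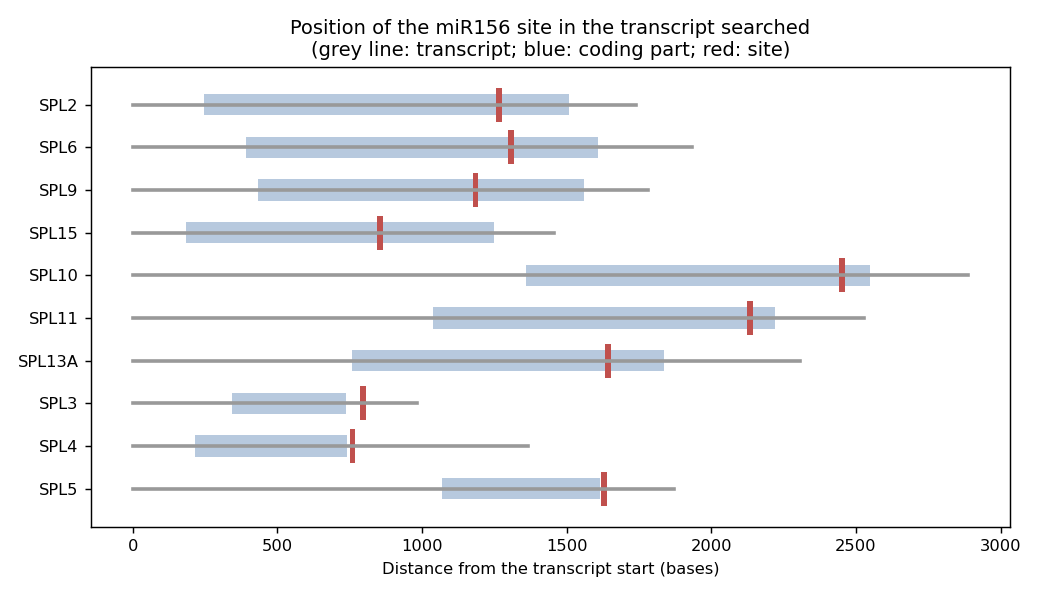
Position of the miR156 site in the transcript that was searched, in bases from the transcript start, for the 10 genes. Grey lines are transcripts to scale, blue bars the coding part and red bars the 20-base site, which lies within the coding part in 7 genes and past it in SPL3, SPL4 and SPL5.

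Of the 10 genes, 8 passed the filter on low counts and 2 did not, and those 2 could not be read as unexpressed. SPL15, which acts with SPL9 in the timing of flowering, had 0 counts in every library. SPL3, a short SPL protein that activates floral identity genes, had 0, 2 and 1 counts in the libraries labelled VGD1 and 1, 0 and 0 in the controls. All of the exon length of SPL15 (100%) is covered by exons of AT3G57910 on the other strand, and 97.4% of that of SPL3 by the long noncoding RNA AT2G33815. Over all protein-coding loci of the tables with at least 95% of their exon length covered by another gene, 461 of 487 (94.7%) had 0 counts in all 6 libraries, against 12.8% of the 22717 loci with 5% or less. AT2G33815 also had 0 counts in every library, whereas AT3G57910, which extends beyond SPL15, had 160 to 236 counts in the libraries labelled VGD1 and 81 to 296 in the controls. No direction is given for SPL3 or SPL15.

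**Figure D2:**
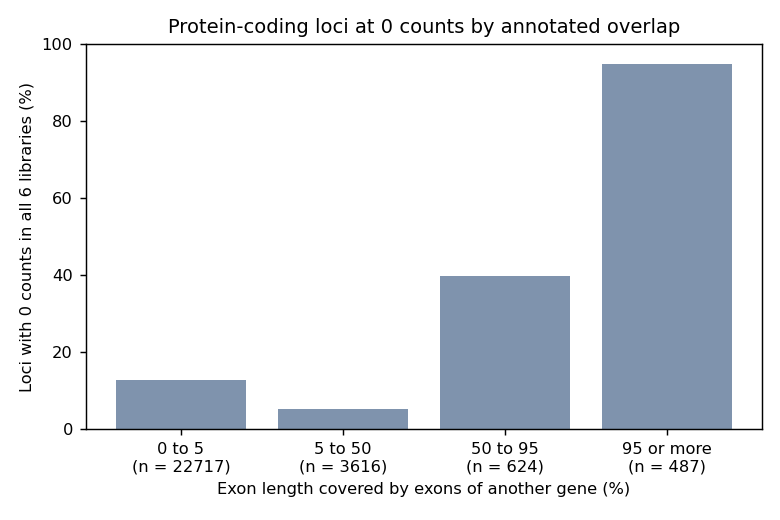
Share of protein-coding loci with 0 counts in all 6 libraries (percent, vertical axis) by the percent of their exon length that exons of another gene cover (horizontal axis). The share was 12.8% at 0 to 5% and 94.7% at 95% or more, the class that holds SPL3 and SPL15.

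The remaining overlaps were smaller. Exons of other genes on the opposite strand cover 25.5% of the exon length of SPL5, 14.4% of SPL4, 3.87% of SPL13A, 3.82% of SPL9 and 0.982% of SPL6, and none of SPL2, SPL10 or SPL11. SPL13A and SPL13B have coding sequences that are 100% identical, and 85.6% of the 50-base words of SPL13A transcripts also occur in SPL13B. Their counts differed by at most 1 in each of the 6 libraries: 22 and 21, 18 and 17, and 19 and 20 for SPL13A and SPL13B in the libraries labelled VGD1, and 31 and 31, 47 and 46, and 9 and 8 in the controls. The values of SPL13A are thus uncertain and cannot be assigned to either copy. None of the other 9 members shared a 50-base word with another gene on the same strand.

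Per kilobase of exon, SPL9 was the most abundant of the members whose level could be read. This leaves out SPL3 and SPL15, and the level of SPL13A is uncertain. Over the 6 libraries SPL9, which sets the rate of leaf initiation and activates MIR172B, averaged 80.5 ± 10.5 CPM per kb (SD, n = 6). SPL2, SPL4 and SPL10 followed at 38.1 ± 7.15, 36.3 ± 6.52 and 35.3 ± 10.4 CPM per kb (SD, n = 6 each). Over all 6 libraries the ranges of these 3 overlapped. Their order per kilobase of exon differed between the groups. That restates the SPL10 difference on which the family was chosen, so nothing is read from it. In the libraries labelled VGD1, SPL10 averaged 44.0 ± 5.93, SPL2 41.9 ± 8.22 and SPL4 39.8 ± 7.11 CPM per kb (SD, n = 3 each), with overlapping ranges. In the controls SPL10 averaged 26.6 ± 2.56, SPL2 34.3 ± 4.17 and SPL4 32.7 ± 4.28 CPM per kb (SD, n = 3 each). Per kilobase of exon, SPL10 lay below SPL2 in all 3 controls. Per kilobase of coding sequence SPL10 ranked 2 and SPL2 ranked 4 over the 6 libraries. The order of SPL10 and SPL2 thus depended on the length used, also within the controls. SPL11 stood at 22.7 ± 1.41 CPM per kb (SD, n = 6), below SPL10 in all 6 libraries. SPL5 and SPL6 stood at 12.2 ± 2.76 and 11.0 ± 1.42 CPM per kb (SD, n = 6 each), with overlapping ranges and SPL5 above SPL6 in 5 of 6 libraries. SPL13A stood at 0.519 ± 0.148 CPM per kb (SD, n = 6), below SPL6 in all 6. With only the exon length that no other gene covers, a choice made after seeing the data, SPL4 came to 42.4 CPM per kb, above SPL2, and SPL5 to 16.4 CPM per kb.

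**Figure D3:**
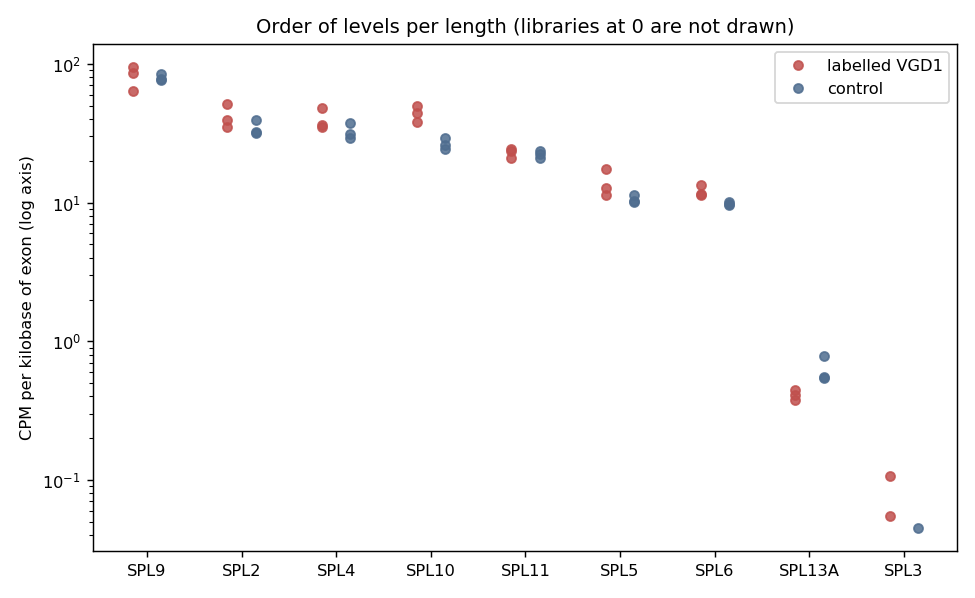
Level of each gene per kilobase of exon (CPM per kb, log axis) in the libraries labelled VGD1 (red) and the controls (blue), ordered by the mean over 6 libraries. SPL9 lies highest at 63.9 to 94.9 CPM per kb, SPL15 is at 0 and not drawn, and the libraries in which SPL3 is at 0 are left out.

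SPL10 had the largest upward difference of the 8 fitted members. SPL10, which with SPL2 and SPL11 shapes lateral organs and slows their growth, stood at 121, 159 and 140 CPM in the libraries labelled VGD1, against 93.7, 77.6 and 83.3 CPM in the controls. The groups did not overlap, and the lowest library labelled VGD1 exceeded the highest control by more than the whole range of the controls. The log2 difference was 0.72 (SE 0.12), a 1.65-fold higher level. In the edgeR quasi-likelihood fit over 19719 genes, SPL10 was the 1 member of the 8 fitted that passed an adjusted p of 0.05, where 0.416% of all genes passed in either direction and 0.101% passed as higher. This family was picked with that result known, so nothing is read from the count. SPL10 no longer passed when any library other than replicate 1 labelled VGD1 was left out, and with limma-voom, while its log2 difference lay between 0.64 and 0.82 in all 12 alternative settings. The shares of all genes past the threshold in those settings were 0.527% with RLE factors, 0.436% with library totals, 0.546% without the filter, 2.18% with DESeq2, 0.228% with limma-voom and 0.984% with the replicate block. They were 1.01%, 0.399% and 0.224% without replicate 1, 2 or 3 labelled VGD1, and 0.06%, 0.0201% and 0.942% without control replicate 1, 2 or 3.

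SPL11 is the member closest to SPL10 in sequence, and its groups overlapped. Their coding sequences are identical at 86.4% of the bases of the longer one, the most alike pair of members, and the genes lie next to each other on chromosome 1. SPL11 stood at 64.0, 57.7 and 66.6 CPM in the libraries labelled VGD1, against 64.8, 57.3 and 61.7 CPM in the controls. The libraries of both groups were interleaved, with a log2 difference of 0.04 (SE 0.09). A difference between the SPL10 and SPL11 responses was not tested. SPL2, the third gene of this group, stood at 90.6, 132 and 102 CPM in the libraries labelled VGD1, against 101, 81.6 and 83.3 CPM in the controls. The groups overlapped, since control replicate 1 lay above replicate 1 labelled VGD1, and the log2 difference was 0.28 (SE 0.15). It was 0.13 without replicate 2 labelled VGD1.

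SPL9 did not differ in level beyond its spread. It stood at 114, 169 and 153 CPM in the libraries labelled VGD1, against 136, 138 and 151 CPM in the controls, with a log2 difference of 0.04 (SE 0.14). The libraries labelled VGD1 lay on both sides of all 3 controls. As a share of the summed CPM per kb of the 10 genes, SPL9 made up 26.8%, 33.9% and 34.0% in the libraries labelled VGD1, against 34.9%, 37.6% and 37.7% in the controls. SPL10 made up 16.0%, 17.9% and 17.5%, against 13.4%, 11.8% and 11.6%. Neither share overlapped between the groups, and the shares of a sum are not independent of each other. The summed level of the 10 genes, SPL10 included, was 512, 618 and 554 CPM in the libraries labelled VGD1 and 476, 436 and 472 CPM in the controls.

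**Figure D4:**
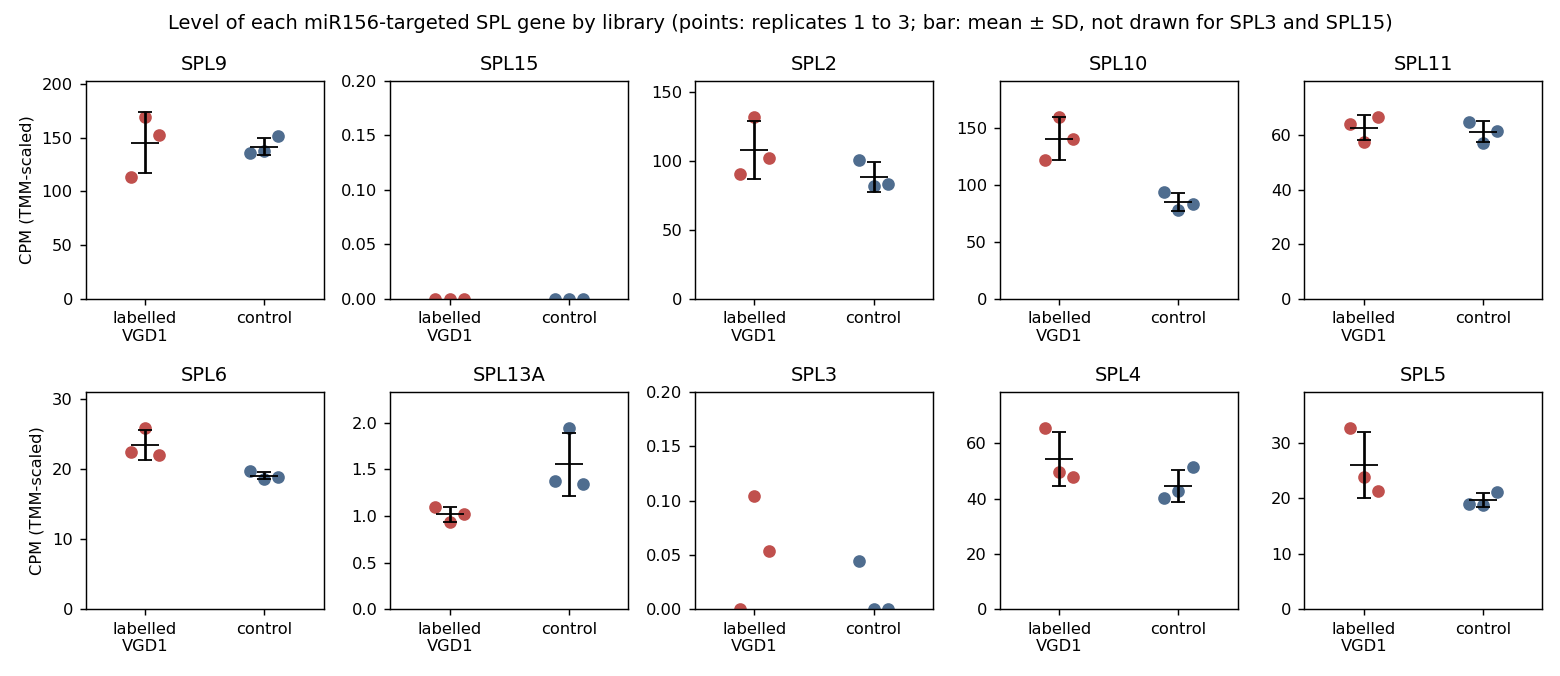
CPM of each of the 10 genes in the 3 libraries labelled VGD1 (red, left) and the 3 controls (blue, right), with points in the order of replicates 1 to 3 and bars for the mean and SD (not drawn for SPL3 and SPL15), on axes that start at 0 and differ between panels. SPL10 is at 121 to 159 CPM against 77.6 to 93.7 CPM, whereas SPL11 overlaps throughout.

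The short SPL genes with a site in the 3′ UTR, SPL4 and SPL5, which promote floral meristem identity with SPL3, had similar profiles across libraries. SPL5 stood at 32.7, 23.8 and 21.4 CPM in the libraries labelled VGD1, against 19.1, 18.9 and 21.1 CPM in the controls. The groups did not overlap, but replicate 3 labelled VGD1 and control replicate 3 lay close together, and the log2 difference was 0.42 (SE 0.16). SPL4 stood at 65.5, 49.5 and 47.9 CPM in the libraries labelled VGD1, against 40.1, 42.6 and 51.2 CPM in the controls. Here the groups overlapped, with a log2 difference of 0.31 (SE 0.14). Replicate 1 labelled VGD1 was the highest library for both genes and the lowest of its group for SPL2, SPL9 and SPL10. Without that replicate the log2 differences of SPL4 and SPL5 were 0.15 and 0.22. The same library had the highest summed level of 8 floral organ genes, at 757 CPM, against 419 and 513 CPM in the other libraries labelled VGD1 and 610 to 659 CPM in the controls. The part of that list in the SPL4 and SPL5 values was not tested.

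SPL6, an SPL gene known for a role in immunity in Arabidopsis, stood at 22.5, 25.8 and 22.0 CPM in the libraries labelled VGD1, against 19.7, 18.6 and 18.9 CPM in the controls. The groups did not overlap, and the log2 difference was 0.30 (SE 0.12). SPL13A, the uncertain member, stood at 1.098, 0.937 and 1.02 CPM in the libraries labelled VGD1, against 1.37, 1.94 and 1.35 CPM in the controls. It was the 1 member whose libraries labelled VGD1 were each lower than every control, from 9 to 47 counts per library, with a log2 difference of -0.67 (SE 0.35), which was -0.42 without control replicate 2. Across the 8 fitted members, 3 did not overlap and were higher in the libraries labelled VGD1 (SPL5, SPL6 and SPL10), 1 did not overlap and was lower and 4 overlapped. Over all 19719 genes fitted, 8.18% lay above and 9.02% below. The median log2 difference of the 8 was 0.29, beside -3.70e-04 over all genes. These counts are of the comparison that led to the choice of the family.

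**Figure D5:**
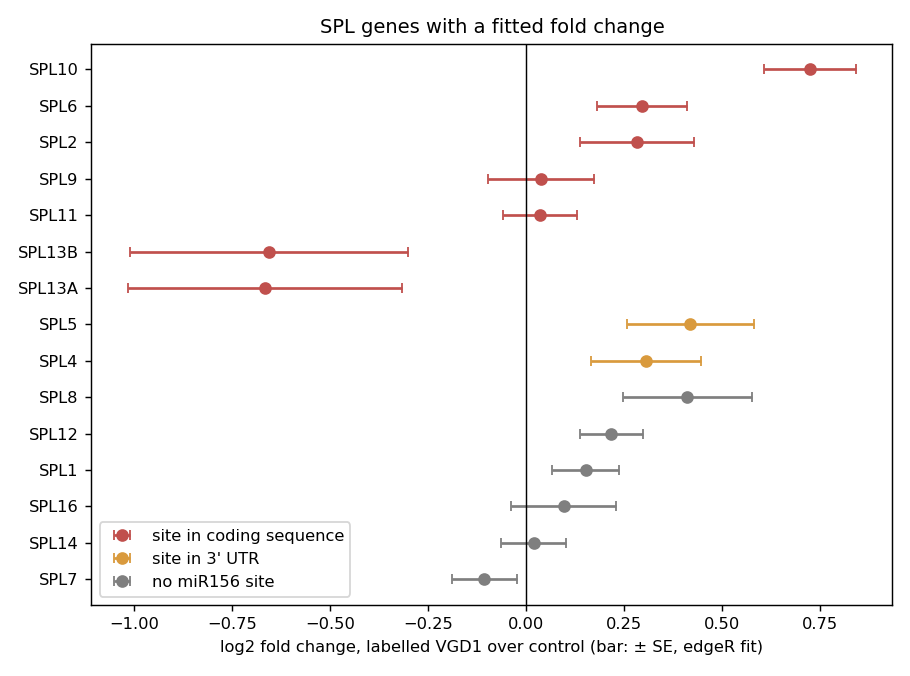
Log2 fold change of the libraries labelled VGD1 over the controls (horizontal axis, points with ± SE from the edgeR fit) for each SPL gene that passed the filter, by the place of its miR156 site. SPL10 is the farthest to the right at 0.72, and the SPL genes without a site run from -0.11 (SPL7) to 0.41 (SPL8).

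Among the 28 pairs of the 8 fitted members, SPL4 and SPL5 had the most similar course over the 6 libraries. Likeness was the root mean square difference of log2 CPM, each gene centred on its mean of the 6 libraries, and it was 0.091 for SPL4 and SPL5. SPL2 and SPL6 came next at 0.125. SPL10 and SPL11 were farther apart, at 0.381, and every pair with SPL13A lay at 0.380 or more. Sequence likeness and likeness of course coincided for SPL4 and SPL5, whose coding sequences are 75.8% identical over the longer one. The distance between SPL10 and SPL11 includes the SPL10 difference on which the family was chosen, so nothing is read from it.

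Of 8208 genes with a symbol and at least 1 CPM on average, the 5 whose course was most like that of SPL10 were SVP, LOV1, Fes1C, ENGase85A and UGT71C5, at root mean square differences of 0.109 to 0.124 over the 6 libraries. SVP, a MADS-box repressor of flowering, stood at 31.6, 45.6 and 41.2 CPM in the libraries labelled VGD1, against 22.6, 23.3 and 23.5 CPM in the controls. Replicate 1 labelled VGD1 was the lowest of its group, as for SPL10. LOV1, an NLR immune receptor gene, stood at 14.4, 15.3 and 14.8 CPM against 9.56, 7.94 and 9.89 CPM in the controls. These genes were picked for their likeness to SPL10, so their differences between the groups follow from the choice.

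SPL genes without a miR156 site were the nearest comparison, and none of the 6 passed the test (edgeR; 2 had an unadjusted p under 0.05). SPL12, which with SPL1 protects inflorescences from heat, had the smallest p, at 104 ± 5.00 CPM in the libraries labelled VGD1 and 89.3 ± 1.83 CPM in the controls (SD, n = 3 each; edgeR adjusted p = 0.276). SPL8, a gene of anther development, stood at 117, 90.4 and 79.1 CPM in the libraries labelled VGD1, against 73.3, 60.9 and 84.4 CPM in the controls, and was highest in replicate 1 labelled VGD1, as SPL4 and SPL5 were. SPL7, the regulator of copper uptake, had a log2 difference of -0.11 (SE 0.08). SPL1 and SPL12 lay above every control in each library labelled VGD1, and SPL7 lay below. Over all genes fitted, 8.18% lay above and 9.02% below. The summed level of the 6 was 783 to 861 CPM in the libraries labelled VGD1 and 719 to 771 CPM in the controls. These sums did not overlap. Those of the miR156 targets did not overlap either. The median log2 difference of the 6 was 0.12, against 0.29 for the 8 fitted miR156 targets. The sums and the median of the targets include SPL10, on whose difference the family was chosen, so nothing is read from these comparisons. A difference between these 2 groups of genes was not tested.

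The loci that encode the microRNA gave almost no counts in these poly(A) libraries. Of 12 MIR156 and MIR157 loci, 7 had 0 counts in all libraries and none passed the filter. Of those 7, MIR156B and MIR156F lie with 100% of their exon length under another gene, so their 0 is read no further than that of SPL15. Their summed level was 0.377 to 0.948 CPM in the libraries labelled VGD1 and 0.662 to 1.05 CPM in the controls. MIR156A had 0 counts in each library labelled VGD1, against 4, 3 and 1 counts in the controls. The limit set by 0 counts is 3 counts, or 0.150 to 0.162 CPM in the libraries labelled VGD1, so a difference was not detectable at this depth. Mature miR156 was not measured.

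No fitted gene of the 8 pathway lists, the SPL genes without a site and SPL13B included, passed the test. The 12 MIR156 and MIR157 loci are among these lists but were not fitted. Of all 8 lists together, 50 of 71 loci were fitted. Of these, 0 were called higher and 0 lower by edgeR, and 11 had an unadjusted p under 0.05. Over all 19719 genes fitted, 0.416% were called and 13.6% had an unadjusted p under 0.05. Limma-voom also called 0 and DESeq2 called 2, CYP78A5 higher and ANS lower. Among 14 genes reported to act on MIR156 loci or upstream of them, VAL1, a B3-domain repressor of MIR156 genes, had the smallest p, at 61.2 ± 1.99 CPM in the libraries labelled VGD1 and 52.5 ± 4.13 CPM in the controls (SD, n = 3 each; edgeR adjusted p = 0.298). Among 10 genes of microRNA production and action, AGO1, the slicer that carries miR156, stood at 515 ± 16.5 CPM in the libraries labelled VGD1 and 431 ± 45.9 CPM in the controls (SD, n = 3 each; edgeR adjusted p = 0.294).

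Downstream of the SPL proteins, MIR172B stood at 0.649, 1.93 and 2.15 CPM in the libraries labelled VGD1, against 0.576, 0.786 and 0.449 CPM in the controls. These levels rest on 13, 37 and 40 counts against 13, 19 and 3. Control replicate 3 thus lay at the limit of 3 counts. The groups overlapped through replicate 1 labelled VGD1 and control replicate 2 (log2 difference 1.25, SE 0.52; edgeR adjusted p = 0.331). The miR172 targets that passed the filter, AP2, TOE1, TOE2 and TOE3, had log2 differences of -0.11, 0.03, -0.05 and 0.33. Of 10 flowering genes reported as SPL targets, 9 were fitted and 0 passed (2 at an unadjusted p under 0.05). LFY, the regulator that starts flower development, stood at 33.8, 29.0 and 28.7 CPM in the libraries labelled VGD1, against 21.5, 17.0 and 25.3 CPM in the controls, without overlap (log2 difference 0.57, SE 0.15; edgeR adjusted p = 0.152). SOC1, a MADS-box integrator of flowering signals and a target of SPL9, stood at 39.8, 66.6 and 53.2 CPM against 62.1, 81.0 and 63.5 CPM in the controls (log2 difference -0.38, SE 0.19; edgeR adjusted p = 0.429).

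Of 7 genes of trichomes, anthocyanin, branching and organ growth, 5 were fitted and 0 passed (3 at an unadjusted p under 0.05). CYP78A5, a cytochrome P450 that promotes organ growth and acts beside SPL9 on the timing of leaf initiation, came nearest, at 137, 120 and 143 CPM in the libraries labelled VGD1, against 72.8, 64.1 and 99.6 CPM in the controls (log2 difference 0.79, SE 0.15; edgeR adjusted p = 0.0728). DFR and ANS, anthocyanin enzyme genes of the branch that SPL9 represses, stood at 1.29 to 3.02 and 2.50 to 2.60 CPM in the libraries labelled VGD1, against 2.73 to 5.99 and 4.63 to 9.14 CPM in the controls. Their edgeR adjusted p-values were 0.331 and 0.093.

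No marker of green tissue, tapetum or vasculature passed the test, although most had log2 differences below 0, and their part in the SPL values was not tested. The log2 difference was below 0 for 12 of 12 green tissue genes, 11 of 12 tapetum and anther genes and 11 of the 12 fitted vascular and stem genes, with none past the edgeR threshold (6, 3 and 6 at an unadjusted p under 0.05, beside 13.6% of all genes fitted). Summed levels were 12494 to 15745 CPM against 13765 to 19837 CPM in the controls for the green tissue list. They were 368 to 1105 CPM against 1106 to 1320 CPM for the tapetum list, and 155 to 244 CPM against 234 to 320 CPM for the vascular list, in which 1 gene was at 0 in all libraries. The sums of the groups overlapped for the green tissue and vascular lists, where replicate 2 labelled VGD1 exceeded control replicate 3. In such bulk samples fewer cells of a type and less RNA per cell cannot be told apart, for the SPL genes as well.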

How the data were processed

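RNA of 6 meristem libraries was sequenced, and the authors deposited 1 table of whole-number counts per gene for each library. The count columns are headed RNA STAR, an aligner, per the file headers. The submitters' processing notes list TAIR10 and DESeq2 with no version or role. The read counter, its annotation and its handling of strand were not given in the sources used here. Sample titles gave each group and replicate number. Members and gene lists were chosen with earlier results of these data known. The named genes were the members, VGD1 and CLV3 as checks of the labels, SPL13B, the 5 genes most like SPL10 and, in each list, genes past the threshold or else the gene with the smallest p; STM, SOC1, SPL7, SPL8, DFR, ANS, the AP2-like genes and MIR156A were added after their values were seen.

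Counts were fitted with edgeR 4.0.16 in R 4.3.3 (TMM factors, filterByExpr with a minimum count of 10 and total of 15, robust glmQLFit, two-sided quasi-likelihood F test, Benjamini-Hochberg adjustment over 19719 genes, threshold 0.05). Library sizes for CPM were multiplied by the TMM factors. A standard error is the ratio of the log2 fold change to the square root of its F statistic. For likeness, 0.5 was added to counts before log2. Alternatives were RLE factors, library totals, no filter, DESeq2 1.42.0, limma-voom (3.58.1), the replicate number as a block and leaving out each library. Symbols, exon lengths, overlaps and sequences came from RefSeq's TAIR10.1 genome and annotation, which matched 32548 of 32833 loci; coordinates are of that build, which is not the name the notes give. No 2 libraries were copies, with a chi-square of at least 7.79 per gene between any pair. Floors of 3 counts cover counting error only.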

Additional observations from a re-analysis of the deposited data

How the results depend on the processing

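The number of genes past the threshold was 82 and depended on the settings: it was 139 without the filter on low counts, 425 with DESeq2, 45 with limma-voom and 194 with the replicate block, and 4 to 202 when a library was left out (202 and 45 without replicates 1 and 3 labelled VGD1, and 12, 4 and 189 without control replicates 1, 2 and 3). Scaling by library totals gave 30 higher and 56 lower, against 20 and 62 with TMM factors. The balance of directions turned without replicate 2 labelled VGD1 (43 higher and 37 lower) and without replicate 3 (26 and 19). It did not turn without replicate 1 labelled VGD1 (37 higher and 165 lower). Of the members, 1 was past the threshold (SPL10), against 0 with limma-voom and 0 to 1 when a library was left out. Of the pathway genes, 0 were past it, against 2 with DESeq2 (CYP78A5 and ANS), 1 with the replicate block (CYP78A5) and 0 to 1 when a library was left out (CYP78A5 without control replicate 3). Deviations of same-numbered libraries correlated at -0.022, 0.033 and 0.089, and those of differently numbered libraries at -0.088 to 0.064. With 3 libraries per group, these values cannot decide whether the replicate numbers pair the libraries. Log2 differences of SPL2, SPL4, SPL5, SPL6 and SPL10 were above 0 in all 12 alternatives, that of SPL13A was below 0 in all 12 (-0.81 to -0.42), and those of SPL9 and SPL11 crossed 0 (-0.07 to 0.19 and -0.02 to 0.11). Of the 10 members, 8 kept their place in the order of levels with coding length. Among these 8 were SPL3 and SPL15, which could not be read, and SPL13A, which is uncertain. With only the exon length that no other gene covers (chosen after seeing the data), 6 kept their place, and 8 to 10 did when a library was left out. The causes were not tested. With 9 to 47 counts per library, SPL13A is limited by depth, and its counts cannot be assigned to it rather than to SPL13B.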
